A study of Mus musculus with 6 samples.

Results

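The fibroblast growth factor (FGF) ligands and receptors examined here are 6 ligand genes, Fgf15, Fgf3, Fgf4, Fgf5, Fgf8 and Fgf17, and 4 receptor genes, Fgfr1 to Fgfr4. They were chosen by name, with earlier results of these data known. Every probe set whose annotated symbol is exactly one of these 10 genes was taken. This gave 26 of the 45037 probe sets tested, for 10 of the 18193 genes named on the array. A probe set is a group of array probes read together as 1 measurement, and 13 of the 26 belong to ligands and 13 to receptors. All 26 were kept, since no filter on dim values was applied. RNA came from Flk1-positive cells sorted at day 3.5 from embryoid bodies, the aggregates that embryonic stem (ES) cells form as they differentiate. All 6 samples came from 1 mouse ES line, ER71 A17C, on a 129P2/Ola background, so all carried the doxycycline-inducible Etv2 cassette named ER71 A2Lox.cre. In the 3 induced samples Etv2, an ETS-family transcription factor of the endothelial and blood lineages, was switched on for 12 hours, starting on day 3, by doxycycline at 0.5 microg/ml. The 3 control samples were untreated, per the series' design text, although the treatment label carries the doxycycline wording on all 6. No doxycycline-treated line without the cassette was analysed here, so doxycycline and Etv2 cannot be told apart.

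FGF ligands are secreted proteins that bind receptor tyrosine kinases of the Fgfr family together with heparan sulfate, and the bound receptors signal through the adaptor Frs2, Ras and the MAP kinases. Spry, Spred and Dusp genes are induced by the pathway and dampen it. In the gastrulating embryo, Fgf8 is needed in the primitive streak for cells to move away from it as mesoderm. Fgf4 is also expressed in the streak, and Fgfr1 is their main receptor there. Fgf5 marks the primed epiblast, while Fgf3, Fgf15 and Fgf17 are expressed in restricted domains of the streak, mesoderm and neural tissue.

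Values are log2 RMA levels, in which a difference of 1 unit is 2-fold. Array medians lay between 7.34 and 7.40. Induced 2 had the highest median and a lower quartile of 6.06, against 5.96 to 6.01 on the other 5 arrays. Its upper quartile was the lowest, at 9.13 against 9.20 to 9.27. Etv2 lay between 8.59 and 10.71 in the controls and was higher in every induced sample, between 13.27 and 13.36. Kdr, the gene of the sorted protein Flk1, ran from 8.40 to 10.97 over the controls, a range that held all the induced values, 9.36 to 10.52. The mean of 9 nascent mesoderm markers was 11.26, 10.23 and 11.41 for controls 1 to 3, next to 10.83, 10.68 and 11.16 for induced samples 1 to 3. The mean of 10 pluripotent and epiblast markers was 10.52, 11.06 and 10.24 for those controls, next to 10.79, 10.77 and 10.59 for the induced samples. Control 2 therefore stood apart with the lowest Kdr and mesoderm level and the highest epiblast level, although all samples were sorted on Flk1. Kdr is itself among the mesoderm markers averaged, so those levels are not separate. The mean of 10 endoderm markers, at 8.87, 8.20 and 9.21 for the controls and 8.64, 8.63 and 8.99 for the induced samples, was likewise lowest on control 2 and highest on control 3. So was that of 9 cardiac mesoderm markers, at 8.50, 7.66 and 8.81 next to 8.07, 8.11 and 8.55. Gata4 is counted in both the endoderm and the cardiac list. None of the mesoderm and epiblast markers lay below the lower quartile of all probe sets. In such bulk samples, fewer cells of a type and less RNA per cell cannot be told apart.

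No FGF ligand or receptor probe set changed between induced and control samples at the adjusted threshold of 0.05 in limma, whose adjusted p was 0.9998 for each of the 26. Over all probe sets 1, of the purine salvage gene Hprt, was called, or 0.00222%. Etv2 itself was not called, although every induced sample lay above every control, as given above. A probe set that did not pass was therefore not shown to be unchanged. At an unadjusted p under 0.05 there was 1 of the 26 (3.85%), a probe set of Fgf17, against 1.53% of all probe sets, and 0.886% that were lower in induced samples as this one was. Treating samples that share a replicate number as pairs, again 0 of the 26 passed the adjusted threshold, while 5 of the 26 (19.2%) had an unadjusted p under 0.05. These 5 belong to Fgf15, Fgf17 and Fgf4, and in all 5 the induced samples were lower. Over all probe sets the paired comparison gave 1.89% lower and 2.88% in either direction at that level, and 0 after adjustment. The pairing is uncertain, which limits every paired value given below. With 1 probe set per gene, deviations from group means correlated at r = 0.30 between control 2 and induced 1. The matched numbers 1 and 2 gave 0.16 and 0.22. Probe sets of 1 gene read the same RNA, so the 5 are 3 genes and not 5 separate observations. The induced sample was lower than the control of its number in all 3 pairs for 6 of the 26 (23.1%), against 13.3% of all probe sets. It was higher in all 3 pairs for 5 of the 26 (19.2%), against 9.53%.

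**Figure D1:**
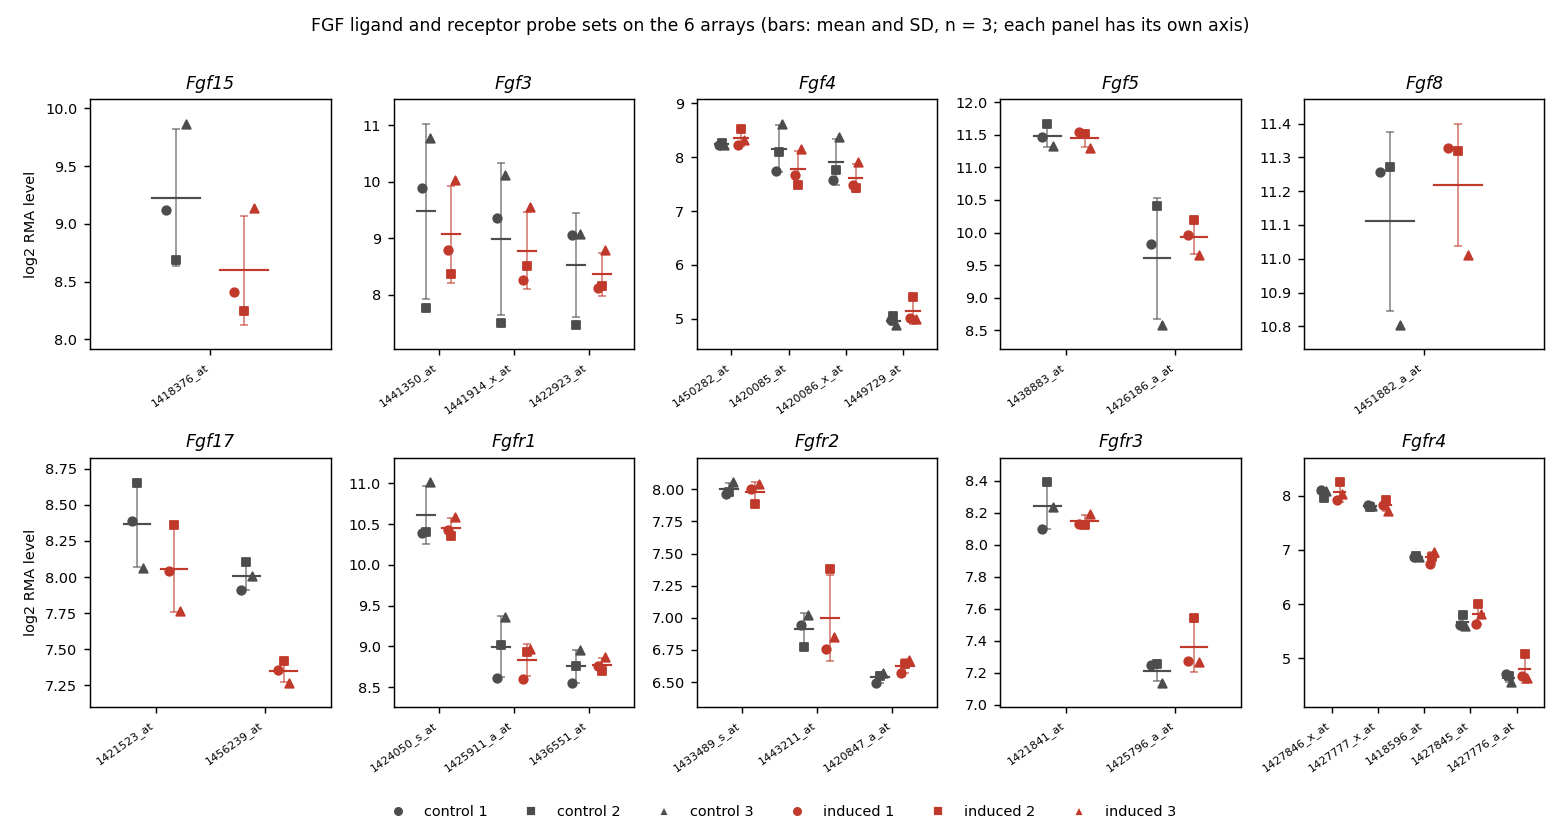
Log2 RMA level (vertical axis, a separate scale for each gene) of the 26 probe sets in control (grey) and induced (red) samples, with the replicate number given by the marker and bars for the mean and SD of 3 samples. The groups lie wholly apart for Fgf17 probe set 1456239_at, with the induced samples lower, and for Fgfr3 probe set 1425796_a_at, with the induced samples higher.

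Fgf17, a ligand of the Fgf8 subfamily, gave the clearest separation of the groups. On its probe set 1456239_at controls 1 to 3 read 7.91, 8.11 and 8.01, and induced samples 1 to 3 read 7.36, 7.42 and 7.27. The groups did not overlap, and each induced sample was lower than every control. The log2 fold change was -0.66 ± 0.084 (SE), so the controls were 1.58-fold higher, with a 95% interval of -0.86 to -0.47. Its unadjusted p of 7.07e-05 was rank 2 of 45037 in limma, but it did not pass adjustment (adjusted p = 0.9998, and 0.193 to 1 over the other settings tried). The exact two-sided permutation p was 0.1, and 3 samples a group can give nothing smaller. Probe sets whose induced samples lay wholly below the controls made up 3.7% of all probe sets, and this was 1 of the 26 (3.85%), so the count of separated FGF probe sets was close to the background.

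The other Fgf17 probe set, 1421523_at, pointed the same way with more spread. The controls read 8.39, 8.65 and 8.06, the induced samples read 8.04, 8.36 and 7.76, and the groups overlapped. Within replicate numbers 1, 2 and 3 the induced sample was lower by similar amounts, with differences of -0.35, -0.29 and -0.30. The log2 fold change was -0.31 ± 0.19 (SE, unadjusted p = 0.138 in limma), and with the pairs in the fit the SE was 0.079 and the unadjusted p 0.0068 (adjusted p = 0.9997 in limma). The fold change was -0.17 without control 2 or without induced 3, and -0.46 without control 3 or without induced 2.

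Fgf15, the mouse counterpart of human FGF19, had 1 probe set, on which the pairs all differed the same way. Controls 1 to 3 read 9.12, 8.69 and 9.87, and the induced samples of those numbers read 8.41, 8.25 and 9.13. Sample 3 was highest and sample 2 lowest in each group, so the groups overlapped although every induced sample was lower than the control of its number. The differences within numbers were -0.72, -0.44 and -0.73. The log2 fold change was -0.63 (SE 0.33, unadjusted p = 0.0929 in limma), a level 1.55-fold higher in controls. With the pairs in the fit the SE was 0.095, the 95% interval -0.86 to -0.40 and the unadjusted p 4.60e-04, rank 13 of 45037 (adjusted p = 0.9997 in limma). These paired values rest on the uncertain pairing of the replicate numbers. Single samples moved the unpaired value widely: it was -0.31 without control 3 and -0.90 without control 2 or without induced 3.

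Fgf4, a streak and epiblast ligand, was read by 4 probe sets that did not agree. For probe set 1420085_at the controls read 7.75, 8.11 and 8.63 and the induced samples 7.67, 7.49 and 8.16. Probe set 1420086_x_at, annotated to the same transcript accession, followed it at 7.59, 7.76 and 8.39 against 7.49, 7.43 and 7.92. In both, each induced sample was lower than the control of its number while the groups overlapped. Their log2 fold changes were -0.39 ± 0.25 and -0.30 ± 0.22 (SE), with unadjusted p of 0.155 and 0.215 in limma, and 0.0161 and 0.0226 with the pairs. Without control 3 the fold changes were -0.16 and -0.061, and without control 1 they were -0.59 and -0.46. The other pair of Fgf4 probe sets leaned the opposite way. On probe set 1450282_at the controls spanned 8.23 to 8.27 and the induced samples 8.23 to 8.53, with a log2 fold change of 0.12 ± 0.094 (SE). Probe set 1449729_at, annotated to the same accession as the lower-leaning pair, lay below the lower quartile of all probe sets, with controls at 4.88 to 5.04 and induced samples at 4.99 to 5.40. Induced 2, the array with the raised lower quartile, was the highest of the 6 on both. Probe positions were not analysed here, so no single direction can be given for the gene.

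**Figure D2:**
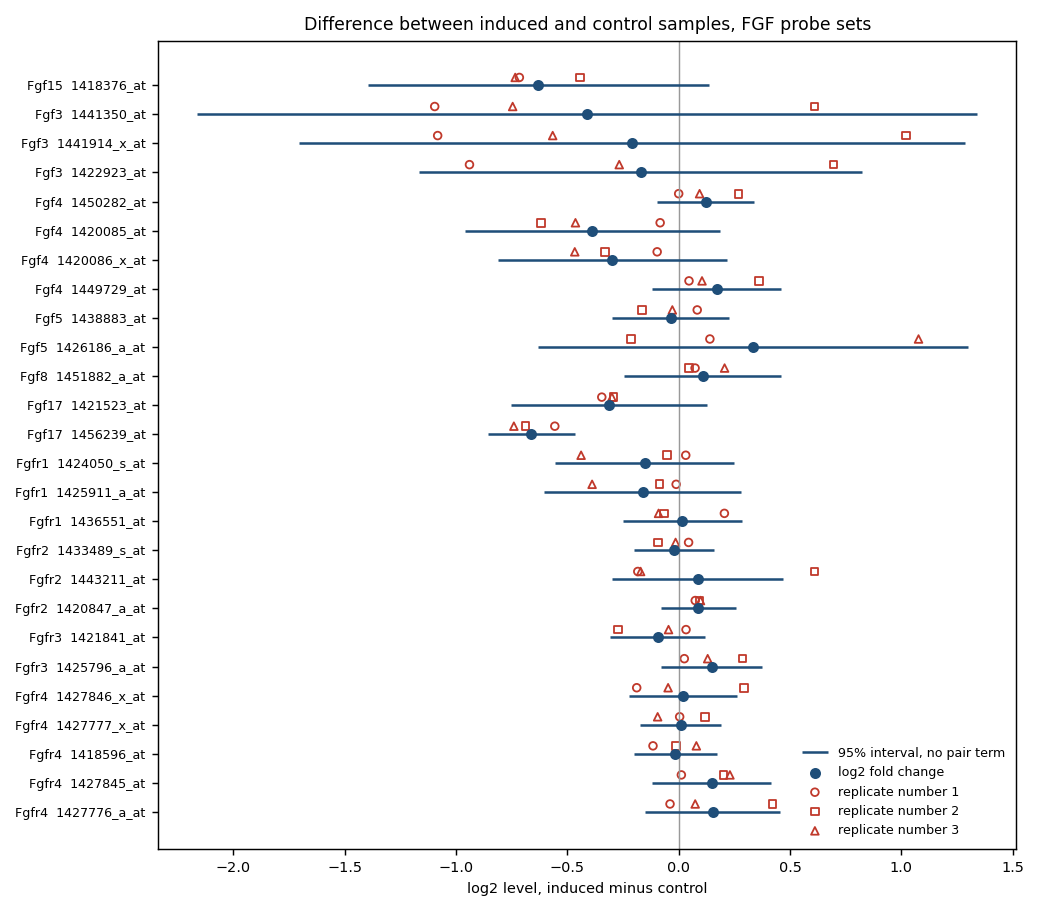
Log2 level of induced minus control samples (horizontal axis) for each of the 26 probe sets, as the fold change with its 95% interval from limma without a pair term (blue) and as the difference within each replicate number (red open markers). Both Fgf17 probe sets and Fgf15 have all 3 differences below 0, while the differences of Fgf3 fall on both sides of 0.

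Fgf3 varied more between arrays than any other member, and mostly within the groups. On probe set 1441350_at controls 1 to 3 read 9.90, 7.77 and 10.78, while induced samples 1 to 3 read 8.80, 8.38 and 10.03. Control 3 and control 2 were the highest and the lowest of the 6 arrays, 3.01 log2 units apart, so the controls enclosed all the induced samples. Induced samples were lower than controls in numbers 1 and 3, by -1.10 and -0.75, and higher in number 2, by 0.61. The log2 fold change was -0.41 ± 0.75 (SE), with a 95% interval of -2.16 to 1.34. It was -1.27 without control 2 and 0.24 without control 3, so its direction rested on single samples. The other Fgf3 probe sets, 1441914_x_at and 1422923_at, also had their lowest value in control 2 and their highest in control 3, with ranges of 2.62 and 1.60. Of the 26 probe sets 6 (23.1%) ranged over at least 1 unit across the arrays, against 2.86% of all. All 6 belong to Fgf3, Fgf15, Fgf5 and Fgf4. They include every Fgf3 probe set, and those of 1 gene are not separate observations.

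The 6 arrays stood in the same order for Fgf3 probe set 1441350_at as for Kdr. It ran from control 2 through induced 2, induced 1, control 1 and induced 3 to control 3. Such an identical order was found for 0.568% of the other probe sets of the array, and for 1 of the 26. A probe set of Fgf5 ran the opposite way: on 1426186_a_at the controls read 9.82, 10.41 and 8.58 and the induced samples 9.96, 10.19 and 9.66, which is the exact reverse of the Kdr order. A reverse order was found for 0.566% of probe sets, and again for 1 of the 26. The other Fgf5 probe set and the other 2 Fgf3 probe sets had neither order. This comparison of orders was chosen after the values were seen, and Kdr is also the gate's own gene. Since the mesoderm, endoderm, cardiac and epiblast marker means given above differ between the same arrays, their part in the levels of Fgf3 and Fgf5 was not tested.

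**Figure D3:**
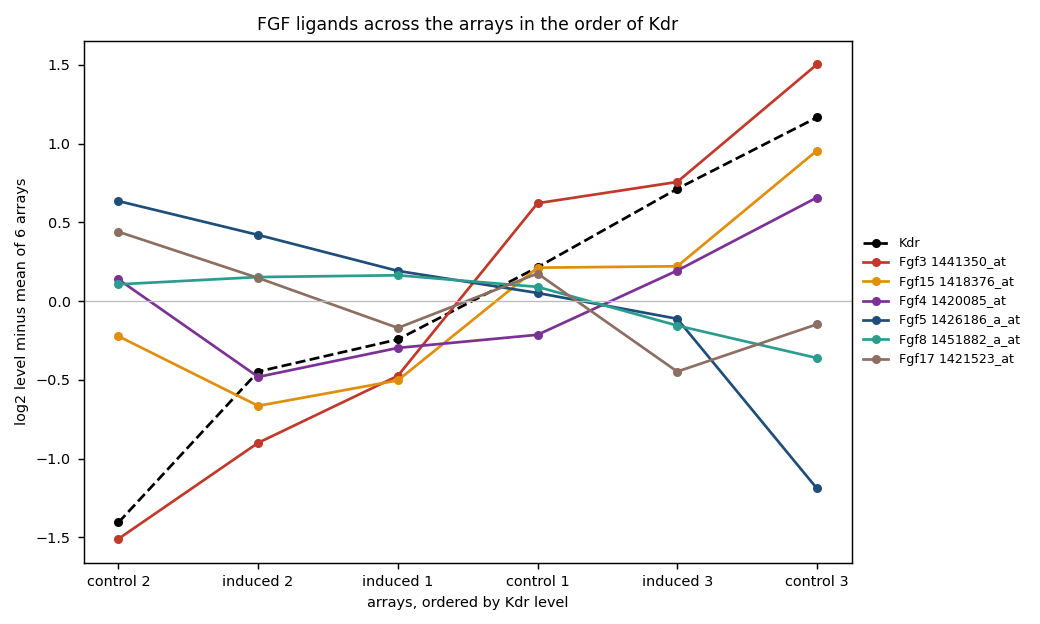
Log2 level minus the mean of the 6 arrays (vertical axis) for Kdr (dashed) and, for each of the 6 ligands, its probe set of widest range, with the arrays placed from the lowest to the highest Kdr level. Fgf3 climbs from control 2 to control 3 over 3.01 units, while Fgf5 probe set 1426186_a_at descends over 1.82 units.

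Promoter sequences from RefSeq (GRCm38.p6) were found for 6 of the 10 genes, as 7 promoters. Those of Fgf3 and Fgf5, each with a probe set that ran in the order of Kdr or its reverse, and of Fgf4, the neighbour of Fgf3, are shown from 250 bases upstream to the base before the annotated start, 5′ to 3′ on the plus strand. They span chr7:144838362-144838611, chr5:98253934-98254183 and chr7:144861136-144861385, in that order. Capitals mark matches to any of 4 motifs searched on both strands: CCGGAA for ETS factors, GGTGTGA for T-box factors, CTTTGAA for TCF/LEF and TGACTCA for AP-1.
Fgf3: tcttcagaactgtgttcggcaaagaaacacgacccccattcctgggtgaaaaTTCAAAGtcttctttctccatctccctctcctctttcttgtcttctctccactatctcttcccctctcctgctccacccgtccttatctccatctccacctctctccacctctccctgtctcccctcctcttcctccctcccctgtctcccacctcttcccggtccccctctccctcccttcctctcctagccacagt
Fgf5: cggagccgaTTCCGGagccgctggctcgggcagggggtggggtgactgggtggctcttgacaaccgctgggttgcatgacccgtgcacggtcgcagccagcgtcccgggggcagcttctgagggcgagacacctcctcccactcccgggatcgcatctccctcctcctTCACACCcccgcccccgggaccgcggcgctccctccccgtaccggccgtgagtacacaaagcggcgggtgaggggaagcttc
Fgf4: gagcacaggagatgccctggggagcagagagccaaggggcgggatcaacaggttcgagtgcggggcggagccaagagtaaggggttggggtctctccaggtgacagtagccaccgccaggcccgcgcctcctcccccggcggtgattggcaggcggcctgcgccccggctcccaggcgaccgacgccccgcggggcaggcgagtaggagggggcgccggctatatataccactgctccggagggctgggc
The Fgf3 window holds 1 TCF/LEF match, as its reverse complement, from 198 to 192 bases upstream, and 4.46% of the 32851 promoter windows of the same length hold one. In the Fgf5 window an ETS match, also on the reverse strand, lies 241 to 236 bases upstream, and a T-box match lies 82 to 76 bases upstream. Windows with these motifs made up 12.03% and 3.33% of all. The Fgf4 window has none of the 4 motifs, and no matches overlapped. Among the 7 member promoters 2 held the ETS motif, those of Fgf5 and Fgfr4, and 0 the AP-1 motif. A match is a description of letters and not of binding. Fgf15, Fgf17, Fgf8 and Fgfr1 have no entry in the table.

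The other Fgf5 probe set, 1438883_at, varied much less than 1426186_a_at. Controls read 11.46, 11.67 and 11.33 and induced samples 11.54, 11.51 and 11.30, with overlap between the groups. Its log2 fold change was -0.037 ± 0.11 (SE), with a 95% interval of -0.30 to 0.23. That of 1426186_a_at was 0.33 ± 0.41 (SE) and became -0.18 without control 3, the array on which it was lowest. Fgf8, the main streak ligand, had 1 probe set. The controls read 11.26, 11.27 and 10.80 on it and the induced samples 11.33, 11.32 and 11.01. Each induced sample was slightly higher than the control of its number, by 0.074, 0.046 and 0.21, and sample 3 was the lowest of both groups. The log2 fold change was 0.11 ± 0.15 (SE, unadjusted p = 0.494 in limma), with a 95% interval of -0.24 to 0.46, and it was -0.045 without control 3.

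In RefSeq order Fgf3, Fgf4 and Fgf15 follow each other on chromosome 7, and Fgf4 is the only protein-coding gene between the other two. The 4 nearest measured genes on each side, added after the values were seen, were Cttn, Ppfia1, Fadd and Ano1 on one side and LTO1, Ccnd1, Tpcn2 and Smim38 on the other. Over the 6 arrays these 8 spanned 0.17 to 0.58 log2 units each, against 3.01 for Fgf3, 0.31 for Fgf4 and 1.62 for Fgf15. These ranges are of each gene's probe set of highest mean level, and Fgf4 probe set 1420085_at ranged over 1.14. None of the 8 had a range of at least 1 unit. Their log2 fold changes ran from -0.13 for Ppfia1 to 0.24 for Smim38, and 2 of the 8 were negative. Ccnd1, which encodes cyclin D1, read 11.96, 11.96 and 12.39 over the controls, next to 11.99, 12.05 and 12.27 over the induced samples, highest in sample 3 of each group.

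**Figure D4:**
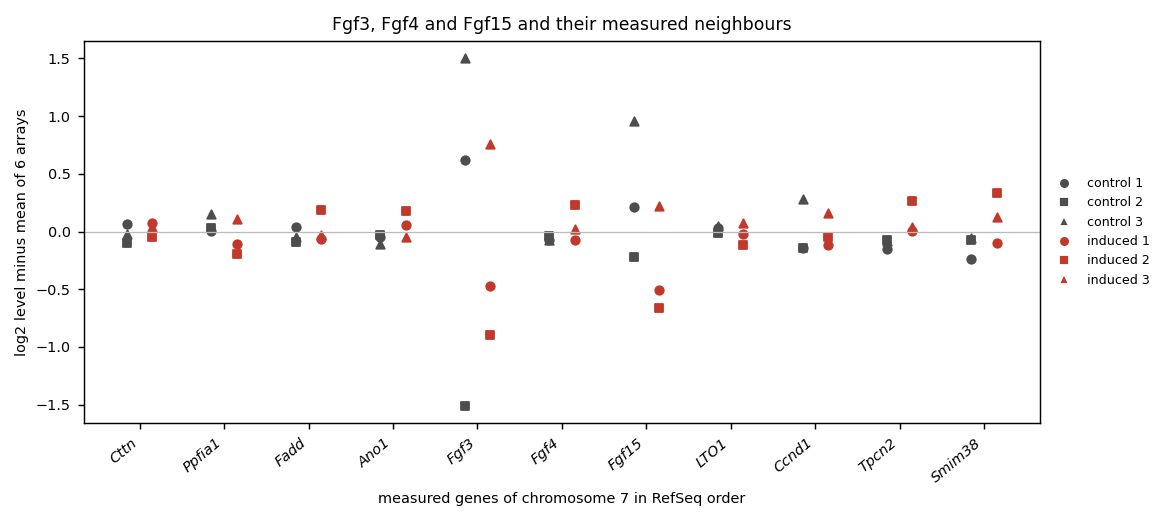
Log2 level minus the mean of the 6 arrays (vertical axis) for Fgf3, Fgf4, Fgf15 and the 4 nearest measured genes on either side on chromosome 7, each by its probe set of highest mean level, in control (grey) and induced (red) samples. Fgf3 and Fgf15 spread over 3.01 and 1.62 units, Fgf4 over 0.31, and the 8 neighbours over 0.58 units at most.

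Receptor and ligand probe sets differed in how far they ranged over the arrays, a difference that was not tested. The 13 receptor probe sets had a median range of 0.41 log2 units over the 6 arrays, from 0.17 to 0.75, and the 13 ligand probe sets a median range of 0.95, from 0.31 to 3.01. Over all probe sets the median range was 0.33. Of the ligand probe sets 3 read Fgf3, and the order does not hold gene by gene: by their probe sets of highest mean level Fgf4 (0.31), Fgf5 (0.37) and Fgf8 (0.53) ranged less than Fgfr1 (0.66). Receptor fold changes lay between -0.16 and 0.15 on the log2 scale, and the smallest unadjusted p was 0.173 in limma and 0.139 with the pairs. Fgfr1, the receptor most tied to streak signalling, was read by 3 probe sets. On 1424050_s_at the controls read 10.39, 10.41 and 11.02 and the induced samples 10.43, 10.36 and 10.58, with control 3 the highest. On 1425911_a_at the values were 8.62, 9.01 and 9.36 against 8.60, 8.93 and 8.97, again highest in control 3. The log2 fold changes were -0.15 ± 0.17 and -0.16 ± 0.19 (SE), and both were above 0 without control 3, at 0.054 and 0.020. Probe set 1436551_at, with controls at 8.55 to 8.96 and induced samples at 8.70 to 8.86, had a log2 fold change of 0.016 ± 0.11 (SE), which was -0.0015 with arrays centred on their medians.

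Fgfr2, which in mesenchyme and epithelium is spliced to forms with different ligands, had 3 probe sets. The one with the highest mean, 1433489_s_at, ranged over 0.17 log2 units, from 7.89 to 8.06 (log2 fold change -0.021 ± 0.078, SE, with a 95% interval of -0.20 to 0.16). Probe set 1443211_at had induced 2 alone at 7.38 and the other arrays at 6.76 to 7.02. Probe set 1420847_a_at was higher in each induced sample than in the control of its number, by 0.074, 0.093 and 0.098.

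Fgfr3 had the only other probe set whose groups did not overlap. On 1425796_a_at the controls read 7.25, 7.26 and 7.14 and the induced samples 7.27, 7.54 and 7.27, so the lowest induced and the highest control value were close. The log2 fold change was 0.15 ± 0.098 (SE, unadjusted p = 0.173 in limma; exact permutation p = 0.1, the smallest possible), and it was 0.056 without induced 2. Induced samples lay wholly above the controls in 2.72% of all probe sets and in 1 of the 26 (3.85%). The other Fgfr3 probe set, 1421841_at, leaned the opposite way, with controls at 8.10 to 8.39, induced samples at 8.12 to 8.19 and a log2 fold change of -0.095 ± 0.092 (SE).

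Fgfr4 was represented by 5 probe sets with ranges of 0.19 to 0.53 log2 units and fold changes between -0.016 and 0.15. Probe sets 1427845_at and 1427776_a_at lay below the lower quartile of all probe sets, at 5.60 to 6.0 and 4.56 to 5.09. On 4 of the 5 Fgfr4 probe sets, and on 6 of the 13 receptor probe sets, induced 2 was the highest array, as it was for 31.8% of all probe sets. Control 3 was the highest for 4 of the 13, against 20.6% of all. The raised lower quartile of induced 2 was given above, and its part in these values was not tested.

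Levels were also compared between the replicate numbers. A moderated F-test of the replicate number beside the group in limma gave 0 of the 26 past the adjusted threshold, as it did for all probe sets. At an unadjusted p under 0.05 it gave 11 of the 26 (42.3%), against 8.32% of all probe sets. Of these 11, 9 were ligand probe sets, 3 of them of Fgf3, and 2 were probe sets of Fgfr1. Fgf15 had the smallest p of the members, 2.33e-04 (adjusted p = 0.288 in limma), followed by Fgf3 1441350_at at 0.0020 and Fgf17 1421523_at at 0.0023. The probe set with the clearest group difference, Fgf17 1456239_at, had an unadjusted p of 0.419 in this limma fit (adjusted p = 0.852). The 11 probe sets read all 6 ligand genes and Fgfr1, and those of 1 gene are not separate observations.

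Other genes of the pathway were taken from lists of ligands, membrane partners, heparan sulfate enzymes, signalling proteins, inhibitors and targets, with 1 probe set per gene. A listed gene counted as measured only where a probe set carried that symbol alone, so an uncounted gene may still be on the array. In none of these lists did a gene pass the adjusted threshold in limma, in either direction. Among the 18193 genes with a probe set 1.59% had an unadjusted p under 0.05, the median log2 fold change was 0.0026 and 48.9% were negative. The 10 ligands and receptors taken this way had a median of -0.066, with 7 negative and 0 at that unadjusted p. The 16 remaining FGF ligand genes had a median of 0.057 with 6 negative, and 5 of the 16 lay below the lower quartile of all probe sets. Their 2 highest levels were those of Fgf13, an intracellular member of the family, with group means of 10.59 (control) and 10.43 (induced), and Fgf10, a mesenchymal ligand, at 8.58 and 8.66. Membrane partners numbered 14, with a median of -0.022 and 8 negative. The glypican gene Gpc3 was at 11.35 and 11.03 with control 2 lowest, and the syndecan gene Sdc1 at 10.68 and 10.57. Heparan sulfate enzymes, 12 of 14 measured, had a median of -0.014 with 9 negative.

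Downstream of the receptors, 12 of 18 listed signalling genes were measured, with a median log2 fold change of -0.056 and 10 negative. Nras, a Ras protein, had means of 12.40 (control) and 12.34 (induced), and Ptpn11, the phosphatase that couples FGF receptors to Ras, at 11.41 and 11.27. Feedback inhibitors, all 12 measured, had a median of -0.015 with 7 negative. Dusp6, the phosphatase of the ERK kinases, read 13.13, 13.06 and 13.29 over the controls and 13.14, 13.13 and 13.22 over the induced samples, a log2 fold change of 0.0014 ± 0.085 (SE). Spry2, an inhibitor of receptor signalling, had 0.095 ± 0.11 (SE). Transcription targets, 12 of 14 measured, had a median of -0.048 with 7 negative and 2 at an unadjusted p under 0.05. These 2, chosen after their values were seen, went in opposite directions: Egr1, an immediate-early factor, had -0.47 ± 0.18 (SE) and Ier3, an early-response gene, 0.38 ± 0.13. With the pairs in the fit 4 of the 12 targets had an unadjusted p under 0.05, against 523 of the 18193 genes, and 0 passed adjustment. Beside these 2 they were the growth regulator Myc, at -0.26 ± 0.088 (SE), and Snai1, a repressor of epithelial genes, at -0.50 ± 0.19, so 3 of the 4 were negative. Among the inhibitors 1 did so, Il17rd, which restrains FGF receptor signalling, at 0.22 ± 0.082 (SE). These 3 genes too were chosen after their values were seen. The paired count was 0 in the lists of other ligands, membrane partners, heparan sulfate enzymes and signalling genes, and 2 of the 10 ligands and receptors. Etv5, an ETS factor induced by FGF, stood at 12.15 and 12.09, and Ccnd1 at 12.10 in both groups. Induced 2 had the lowest mean level of all arrays for signalling genes (10.78), feedback inhibitors (10.73) and heparan sulfate enzymes (9.53). For the other FGF ligands it had the highest (6.70). Control 2 was lowest for membrane partners (8.92) and targets (9.95). The part of the quartiles of induced 2 in the list medians and negative counts was not tested.

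**Figure D5:**
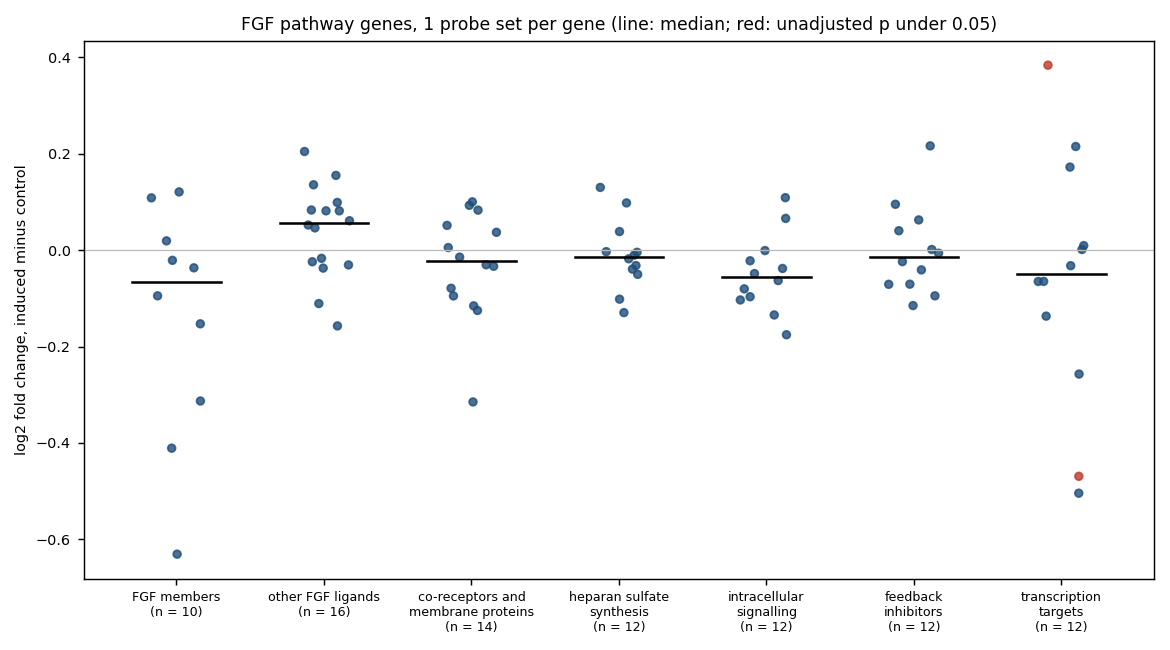
Log2 fold change of induced minus control (vertical axis) for the 10 FGF ligands and receptors and for 6 lists of other pathway genes, 1 point per gene, with a line at each list's median and red points for an unadjusted p under 0.05 in limma. The list medians lie between -0.066 and 0.057, and Egr1 and Ier3 are the red points.

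Genes with the pattern most like Fgf15 and Fgf3, the members whose main probe set ranged over at least 1 unit, were sought by the root mean square difference between the 6 centred log2 values. The closest to Fgf3 were Gata4, a factor of cardiac mesoderm and endoderm, at 0.16, the chemokine receptor gene Cxcr4 at 0.16 and the ligand gene Wnt2 at 0.22. Relative to its mean over the arrays, Gata4 was at 0.36, -1.46 and 1.47 over the controls and -0.56, -0.64 and 0.83 over the induced samples, with control 2 lowest and control 3 highest as for Fgf3. The closest to Fgf15 were Slc5a3, an inositol transporter gene, at 0.18, and Zcchc12 and Gm3134 at 0.19 each. These are likenesses over 6 arrays that share the same sorts and replicate numbers.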

How the data were processed

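RNA of 3 control and 3 induced samples was measured on Affymetrix mouse arrays. The deposited values are log2 levels per probe set from RMA, a method named for the authors' processing in the submitters' processing notes, which corrects background, quantile-normalizes arrays and summarises probes. No label says whether replicates were separate cultures, so p-values measure the spread between these samples. The number of arrays limits the precision.

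Of 45101 probe sets, 64 Affymetrix controls were left out. GEO's platform annotation named 34945 of the rest by 1 symbol, and symbols of those matched in RefSeq by Entrez identifier were the same there. Groups were compared per probe set with limma 3.58.1 (R 4.3.3; two-sided, lmFit then eBayes), and p-values were adjusted by Benjamini-Hochberg across all 45037 with a threshold of 0.05. The code was tested on simulated data. Deviations from group means of same-numbered samples correlated over probe sets at r = 0.25, 0.17 and 0.23 for numbers 1, 2 and 3. All exceed 0.1, so the numbers were treated as pairs in a second fit with a replicate block. Mismatched numbers could correlate as highly, with 0.18 between control 2 and induced 1 and 0.21 between control 1 and induced 3. With 1 probe set per gene the matched numbers 1, 2 and 3 gave 0.16, 0.22 and 0.41. Those mismatched combinations then gave 0.30 and 0.24, higher than 2 of the matched numbers, so the pairing is uncertain. The pairing comes from the shared numbers in the titles and from these data. Leaving out samples, 2 scalings, a level filter, 1 probe set per gene, an intensity trend and array weights were tried.

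The members and lists were chosen with earlier results of these data known. All member probe sets are named. From each list the genes past the threshold, or otherwise the 2 with the highest level, were to be named, and other genes are said to be chosen after their values were seen. Marker lists of endoderm, neural, endothelial, blood and cardiac cells had no gene past the threshold.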

Additional observations from a re-analysis of the deposited data

How the results depend on the processing

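Over the 16 other settings, 0 of the 26 FGF probe sets passed the adjusted threshold in any, with the replicate block included. The replicate block left 0 probe sets of the whole table changed, against 1, and so did centring each array on its median. With a sample or a pair of samples left out, the range of that count was 0 to 0, a setting in which fewer samples were fitted. The count of FGF probe sets that differed between replicate numbers was 0 under the 6 settings tried for it. The log2 fold changes of both Fgf17 probe sets, Fgf15 and Fgf4 1420085_at and 1420086_x_at stayed negative in every setting that kept them. That of Fgfr3 1421841_at did too. The opposite-leaning Fgf4 1450282_at (0.035 to 0.19) and 1449729_at (0.036 to 0.25) stayed positive in every setting that kept them. So did Fgfr2 1420847_a_at, Fgfr3 1425796_a_at and Fgfr4 1427776_a_at and 1427845_at. Quantile normalization turned the sign of Fgfr4 1427777_x_at (-0.0029). Centring on the median turned the sign of Fgfr4 1427777_x_at (-0.0087), Fgfr1 1436551_at (-0.0015). Array quality weights turned the sign of Fgfr4 1427777_x_at (-0.027), Fgfr4 1427846_x_at (-0.066), Fgfr2 1433489_s_at (0.027), Fgfr2 1443211_at (-0.062). Leaving out samples turned the sign of the following log2 fold changes, none of them called, which then ranged from -0.70 to 0.21 for Fgf3 1422923_at, from -0.087 to 0.12 for Fgfr1 1436551_at, from -0.12 to 0.12 for Fgfr4 1427846_x_at, from -0.12 to 0.055 for Fgf5 1438883_at, from -0.26 to 0.054 for Fgfr1 1424050_s_at, from -0.35 to 0.020 for Fgfr1 1425911_a_at, from -0.18 to 0.74 for Fgf5 1426186_a_at, from -0.054 to 0.025 for Fgfr2 1433489_s_at, from -1.27 to 0.24 for Fgf3 1441350_at, from -0.96 to 0.35 for Fgf3 1441914_x_at, from -0.045 to 0.21 for Fgf8 1451882_a_at, from -0.063 to 0.040 for Fgfr4 1418596_at, from -0.045 to 0.061 for Fgfr4 1427777_x_at and from -0.18 to 0.22 for Fgfr2 1443211_at. The cause of these turns was not tested. Detection calls were not used here, and 3 arrays a group limit what can be told apart: the 95% interval of Fgf3 1441350_at spans both directions by more than 1 log2 unit.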
